A study of Mus musculus with 43 samples.

Results

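The expression of 10 genes of ferritin, haem and iron handling was followed in mouse brain RNA from 2 mouse models of Alzheimer's disease, with and without CDDO-2P-Im. The 10 genes are the ferritin chains Ftl1 and Fth1, the iron exporter Slc40a1, the transferrin receptor Tfrc, transferrin (Trf), ceruloplasmin (Cp), the haem oxygenases Hmox1 and Hmox2 and the biliverdin reductases Blvra and Blvrb. They were selected on their function, with TPM differences of Ftl1 and Hmox1 between these groups already known, and each symbol matched 1 of the 55804 gene rows in both deposited tables. All 10 had a mean of at least 1 TPM (an abundance per transcript length, scaled to a fixed total per library) and were among the 16776 genes tested in the AppNLGF table and the 17592 tested in the APP/TAU table. Differences of Ftl1 and Hmox1 are therefore given as a description, without a test.

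CDDO-2P-Im is a synthetic oleanane triterpenoid that induces NRF2, a transcription factor for antioxidant and detoxifying genes. AppNLGF mice carry the NL-G-F mutations on both copies of their own App gene, and the APP/TAU mice are named APPV717I::TAUP301L for their mutated APP and TAU. Which promoters drive the 2 transgenes is not stated in the labels. In the first cohort, aged 6 months, there were 4 libraries of wild type mice and 11 of AppNLGF mice, all given vehicle, and 13 of AppNLGF mice given the compound. The second cohort, aged 11 months, had 5 wild type and 5 APP/TAU libraries with vehicle and 5 of treated APP/TAU mice. Dosing was oral, 30 µmol/kg 3 times a week, and lasted 4 weeks in AppNLGF and 2 weeks in APP/TAU mice. Controls received a DMSO-based vehicle. The labels number replicates but do not tie each to an animal of its own, so the p-values rest on the spread of these libraries, which may be partly technical. Treated and wild type libraries were both compared with the same vehicle libraries of their cohort.

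Iron inside cells is stored in ferritin, a hollow shell of heavy chains, which oxidise iron, and light chains, which help to lay down the mineral core. Transferrin carries iron in body fluids and enters cells through its receptor, whereas ferroportin, the product of Slc40a1, is the known cellular iron exporter and works with the copper oxidase ceruloplasmin. Haem oxygenase opens the haem ring and frees iron and biliverdin, which biliverdin reductase turns into bilirubin. Ftl1, Fth1, Slc40a1, Hmox1 and Blvrb are known NRF2 targets. Messenger RNAs of ferritin, ferroportin and the transferrin receptor also carry iron-responsive elements, short hairpins bound by the iron regulatory proteins, which act on translation when the hairpin lies before the coding sequence and on RNA stability when it lies after it.

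TPM add up to a fixed total in a library, so the most abundant RNA moves all other values. This RNA, ENSMUSG00000118866, took 22.0 ± 6.59% of TPM in APP/TAU vehicle libraries, against 30.1 ± 3.72% in their wild type and 29.5 ± 1.54% in their treated libraries (SD, n = 5 each). Group means of the AppNLGF cohort were 31.7 to 33.4%. The median APP/TAU difference over all genes was 0.18 (log2) between vehicle and wild type and -0.19 between treated and vehicle. Values are therefore given as deposited and again after median-ratio scaling, which divides each library by its median ratio, over the tested genes, to each gene's geometric mean and brought these 2 medians to -0.00 and 0.00. Differences are on the log2(TPM + 1) scale with their standard error (SE), and the threshold for a call was an adjusted p of 0.05. The labelled tissue is brain. The 10 neuron, 10 astrocyte and 10 oligodendrocyte markers all passed the filter on low values, while the 5 liver markers summed to at most 11.5 TPM in any library after median-ratio scaling. Pcp2, a gene of cerebellar Purkinje cells picked after its values were seen, lay between 126 and 190 TPM in the APP/TAU cohort and below 1 TPM in the AppNLGF cohort, so cohort, age, dosing time and brain region cannot be told apart. In bulk tissue fewer cells of a type and less RNA per cell cannot be told apart either.

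The iron-responsive elements of the ferritin chains and ferroportin are shown because these hairpins tie the 3 genes, together with Tfrc, to one regulatory system. The search took a C, 5 further bases, the loop CAGTG, 1 base other than G, and 5 bases that pair with the first 5 (G with U allowed), on the transcript strand of GENCODE M21 transcripts (GRCm38), which are used here as the reference. Capitals mark the loop start CAGTG, and each line gives 29 bases, 5′ to 3′. The first 3 lie in exons before the coding sequence, at chr7:45459779-45459807 (minus strand), chr19:9982732-9982760 (plus strand) and chr1:45925465-45925493 (minus strand).
Ftl1: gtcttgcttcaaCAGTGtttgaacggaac
Fth1: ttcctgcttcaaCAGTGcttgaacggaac
Slc40a1: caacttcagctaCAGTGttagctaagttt
Tfrc, site 1: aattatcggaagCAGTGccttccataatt
Tfrc, site 2: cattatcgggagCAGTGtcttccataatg
Tfrc, site 3: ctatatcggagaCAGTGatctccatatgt
Tfrc, site 4: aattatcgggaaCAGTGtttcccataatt
The 4 Tfrc sites lie in an exon after the coding sequence (plus strand), at chr16:32631219-32631247, chr16:32631598-32631626, chr16:32631663-32631691 and chr16:32631710-32631738. The sites of Ftl1 and Fth1 differ at 3 of 29 bases, and those of Ftl1 and Slc40a1 at 16 of 29. The pattern was found in 4 of the 10 genes and in 222 of 21877 protein-coding genes (1.01%), before the coding sequence in 23 genes (0.105%). Tfrc was the only gene with 4 or more sites after the coding sequence of 1 transcript. These matches describe the sequences and say nothing about binding in these brains.

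Ftl1 (ENSMUSG00000050708, chromosome 7, 45457944 to 45459884, GRCm38) encodes the ferritin light chain and was among the most abundant brain RNAs, 151st of 16776 genes in the AppNLGF table. In that cohort Ftl1 was at 215, 225, 238 and 231 TPM in the 4 wild type libraries as deposited. Vehicle libraries ran from 218 to 270 TPM (median 233) and treated libraries from 237 to 359 (median 279). As deposited, 7 of 13 treated libraries lay above every vehicle library and all 13 above the vehicle median. After median-ratio scaling the vehicle libraries ran from 208 to 253 (median 241) and the treated ones from 262 to 320 (median 284), so the groups no longer overlapped. The difference between treated and vehicle was 0.22 ± 0.06 as deposited and 0.27 ± 0.04 after scaling (SE, n = 13 and 11), a ratio of means of 1.17 and 1.20. Of all genes, 0.0179% lay higher in every treated than in every vehicle library after scaling, Ftl1 among them. The most abundant RNA took 34.4 to 38.0% of TPM in vehicle libraries numbered 1 to 5 and 29.1 to 33.1% in those numbered 6 or above. In treated libraries it took 32.5 to 40.0% and 28.3 to 37.2% in the same order, so these ranges overlapped. Fitted apart for these numbers, the treated minus vehicle difference was 0.14 ± 0.05 and 0.26 ± 0.07 as deposited, and 0.26 ± 0.05 and 0.28 ± 0.05 after scaling.

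The APP/TAU cohort, dosed for 2 weeks, showed the same direction with another starting point. Ftl1 as deposited was at 243, 250, 212, 227 and 202 TPM in vehicle and at 246, 281, 246, 265 and 257 TPM in treated libraries, with wild type at 232, 186, 220, 255 and 220 TPM. As deposited the groups overlapped, and 3 of 5 treated libraries lay above every vehicle library. After median-ratio scaling wild type libraries were at 238, 228, 237, 220 and 230, vehicle libraries at 214, 196, 217, 187 and 208, and treated libraries at 264, 278, 277, 260 and 282. All 3 groups were then separate, with vehicle lowest, wild type between and treated highest. The treated minus vehicle difference was 0.19 ± 0.09 as deposited and 0.42 ± 0.04 after scaling (SE, n = 5 and 5), a ratio of means of 1.14 and 1.33. Vehicle minus wild type was 0.03 ± 0.09 and -0.18 ± 0.04, so its direction turned with the scaling. Both of these differences rest on the same 5 vehicle libraries. Groups that do not overlap were common in this cohort after scaling, with 0.841% of genes higher in every treated than in every vehicle library and 1.03% lower in every vehicle than in every wild type library.

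Fth1 (ENSMUSG00000024661, chromosome 19, 9980598 to 9985098), the heavy chain with the iron-oxidising site, was the 26th most abundant gene in each table. In AppNLGF libraries its scaled level was 1184 ± 120 TPM with vehicle and 1281 ± 139 with treatment, and 1186 ± 75.7 in their wild type (SD, n = 11, 13 and 4). Treated and vehicle libraries overlapped widely, from 1084 to 1551 against 988 to 1451. The difference was 0.07 ± 0.05 as deposited (adjusted p = 0.783, limma) and 0.11 ± 0.06 after scaling (adjusted p = 0.425). In the APP/TAU cohort the scaled means were 1279 ± 61.4 with vehicle, 1385 ± 96.2 with treatment and 1403 ± 174 in wild type (n = 5 each). Treated minus vehicle was -0.11 ± 0.08 as deposited (adjusted p = 0.331) and 0.11 ± 0.07 after scaling (adjusted p = 0.684), so its sign depended on the scaling.

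The ratio of Ftl1 to Fth1 within a library does not depend on how that library is scaled. In AppNLGF libraries it was 0.201 ± 0.0181 with vehicle and 0.225 ± 0.0291 with treatment, and 0.185 ± 0.00578 in their wild type (SD, n = 11, 13 and 4). There the treated libraries ran from 0.189 to 0.295 and the vehicle ones from 0.163 to 0.227, with 5 of 13 treated libraries above every vehicle library. In the APP/TAU cohort the ratio was 0.164, 0.159, 0.167, 0.155 and 0.153 in vehicle and 0.196, 0.201, 0.196, 0.206 and 0.185 in treated libraries. These 2 groups did not overlap. Wild type libraries of that cohort ran from 0.134 to 0.187. The ratio was chosen with the Ftl1 values known and carries no test. It describes the light chain relative to the heavy chain and does not show that Fth1 stayed constant.

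**Figure D1:**
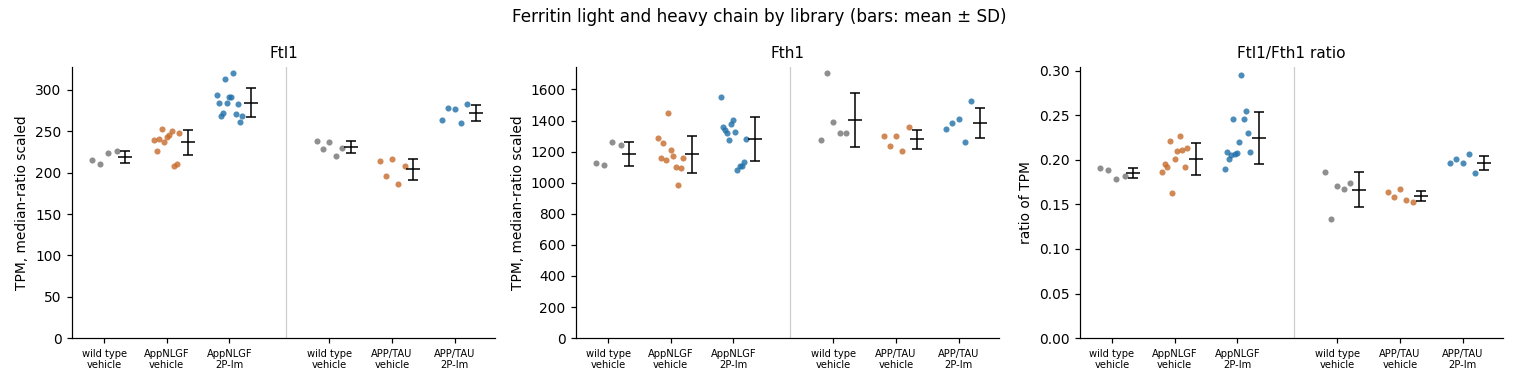
Ftl1, Fth1 and their ratio by library. The vertical axes give median-ratio scaled TPM (Ftl1, Fth1) or the ratio of TPM, the horizontal axis gives the group, points are libraries and bars are mean ± SD. Treated libraries lie above vehicle libraries for Ftl1 in both cohorts, and Fth1 groups overlap.

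Copies of the light chain gene could take or lend reads, and the deposited values do not show how shared reads were divided. Ftl1-ps1 on chromosome 13, annotated as protein-coding, was at 3.85 ± 0.923, 4.95 ± 1.07 and 5.62 ± 1.33 TPM in wild type, vehicle and treated AppNLGF libraries as deposited (SD, n = 4, 11 and 13). Ftl2-ps on chromosome 4, a processed pseudogene, was at 3.62 ± 1.15, 2.35 ± 0.855 and 3.24 ± 0.981 TPM. Both copies were small beside the Ftl1 level of over 200 TPM. The AppNLGF table also lists single transcripts in rows of their own. The share of a gene's total found in such rows had a median of 2.43% for Ftl1 and 0.835% for Fth1, but 20.0% for Slc40a1, 31.2% for Tfrc, 30.0% for Trf and 38.2% for Cp. For Trf most of it was 1 retained-intron transcript at a mean of 44.5 TPM. With these rows added, Ftl1 differed by 0.25 ± 0.03 between treated and vehicle libraries after scaling. As deposited, the transcript rows of Tfrc summed to 16.9 ± 8.77 TPM in vehicle and 14.7 ± 7.49 in treated libraries (SD, n = 11 and 13). In the same order those of Trf summed to 54.5 ± 12.5 and 44.9 ± 19.9, of Cp to 2.14 ± 1.47 and 2.56 ± 1.09, and of Slc40a1 to 0.796 ± 0.415 and 0.728 ± 0.259. Levels of the members in the text are those of the gene rows alone.

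Slc40a1 (ENSMUSG00000025993, chromosome 1, 45908068 to 45926523) encodes ferroportin and was present at low levels, 13121st of 16776 genes. After median-ratio scaling it rose with CDDO-2P-Im in the AppNLGF cohort, from 2.21 ± 0.204 to 3.02 ± 0.557 TPM, with wild type at 2.02 ± 0.363 (SD, n = 11, 13 and 4). Vehicle libraries ran from 1.90 to 2.54 TPM and treated ones from 2.13 to 3.95, and 11 of 13 treated libraries lay above every vehicle library. The difference was 0.32 ± 0.07 after scaling (adjusted p = 0.0322, limma) and 0.29 ± 0.09 as deposited, where it did not pass (adjusted p = 0.471). The call was narrow. It was lost when any of 11 of the 24 libraries was left out (adjusted p of 0.0501 to 0.0659) and when transcript rows were added to the gene row (0.24 ± 0.08, adjusted p = 0.175). Against wild type the scaled difference was 0.41 ± 0.10 (adjusted p = 0.0328). That call was lost without wild type 2, 3 or 4, with adjusted p between 0.0521 and 0.229.

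In the APP/TAU cohort scaled Slc40a1 was at 2.42, 2.60, 2.53, 2.82 and 2.16 TPM in vehicle and at 2.92, 3.81, 3.43, 3.95 and 3.25 TPM in treated libraries. Wild type was at 2.01, 2.59, 2.50, 2.40 and 1.88. All 5 treated libraries lay above all 10 others, as in 0.841% of genes against vehicle and 0.796% against wild type. The difference from vehicle was 0.35 ± 0.09 after scaling (adjusted p = 0.355, limma) and 0.18 ± 0.13 as deposited (adjusted p = 0.321), so it did not pass the test over all genes. Its size after scaling differed from that in the AppNLGF cohort by -0.03 ± 0.12 (AppNLGF minus APP/TAU, adjusted p = 0.946).

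Tfrc (ENSMUSG00000022797, chromosome 16, 32608920 to 32632794), which takes up transferrin-bound iron, was at 25.7 ± 1.18 TPM in vehicle and 27.4 ± 1.90 TPM in treated AppNLGF libraries after scaling (SD, n = 11 and 13; wild type 27.4 ± 3.49, n = 4). The difference of 0.08 ± 0.04 did not pass (adjusted p = 0.400, limma). In the APP/TAU cohort scaled Tfrc was at 21.8 ± 2.05 in vehicle and 25.4 ± 2.07 in treated libraries, a difference of 0.22 ± 0.08 (adjusted p = 0.506) that was 0.00 ± 0.10 as deposited. Vehicle ran from 18.4 to 23.3 and treated from 22.8 to 28.6, so the groups overlapped.

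Trf (ENSMUSG00000032554, chromosome 9, 103204001 to 103230444), made in brain mainly by oligodendrocytes, spread more between libraries than between groups. Its scaled level ran from 90.8 to 149 TPM in vehicle and from 79.8 to 158 in treated AppNLGF libraries, with means of 116 ± 18.7 and 116 ± 23.8 (SD, n = 11 and 13). The difference was -0.01 ± 0.10 (adjusted p = 0.975, limma). For APP/TAU the means were 187 ± 22.1 with vehicle and 199.5 ± 20.2 with treatment (n = 5 each; 0.10 ± 0.10, adjusted p = 0.821). Cp (ENSMUSG00000003617, chromosome 3, 19957054 to 20009145), the ferroxidase that works beside ferroportin, was at 2.90 ± 0.452 and 2.75 ± 0.497 TPM in vehicle and treated AppNLGF libraries. Its APP/TAU levels were 5.48 ± 0.608 in vehicle and 5.42 ± 0.575 in treated libraries. Neither difference passed (-0.06 ± 0.07, adjusted p = 0.787, and -0.01 ± 0.08, adjusted p = 0.983).

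**Figure D2:**
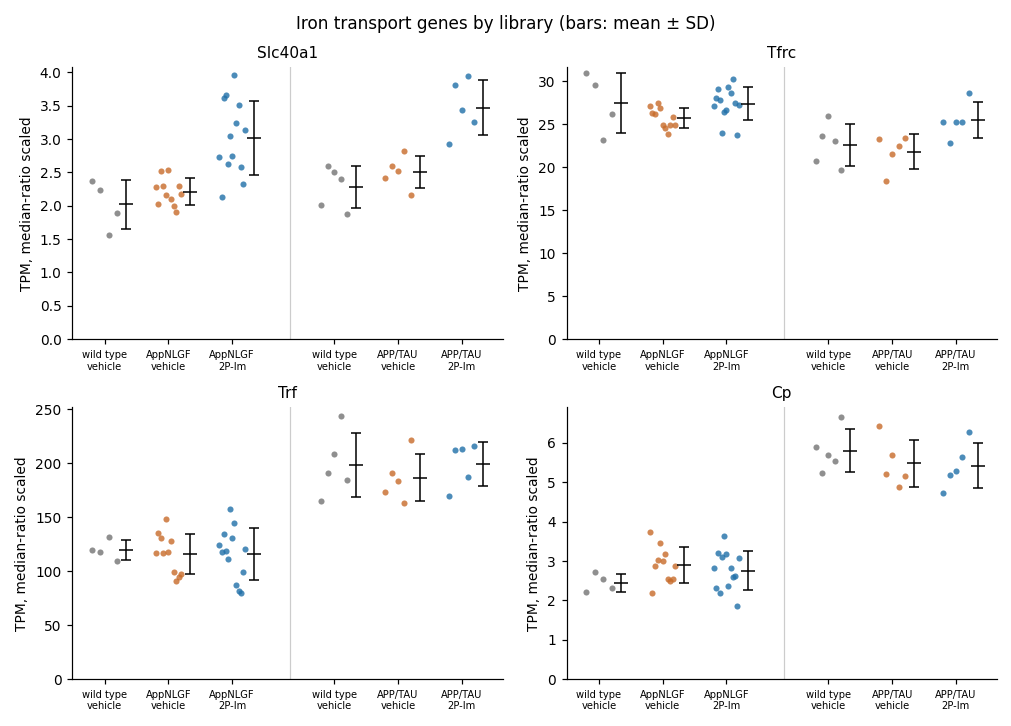
Iron transport genes by library. Vertical axes give median-ratio scaled TPM, the horizontal axis gives the group, points are libraries and bars are mean ± SD. All 5 treated APP/TAU libraries lie above the 10 others for Slc40a1, whereas Trf spreads widely within each group.

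Hmox1 (ENSMUSG00000005413, chromosome 8, 75093621 to 75100589), the inducible haem oxygenase, was high in AppNLGF brains whether or not they had been treated. As deposited it was at 2.30, 1.74, 1.96 and 2.11 TPM in wild type, at 2.27 to 3.83 (median 3.03) in vehicle and at 1.98 to 4.44 (median 3.03) in treated libraries. Of 11 vehicle libraries 10 lay above every wild type library, and after median-ratio scaling all 11 did, as in 0.68% of genes. Vehicle minus wild type was 0.44 ± 0.14 as deposited and 0.46 ± 0.12 after scaling (SE, n = 11 and 4), and treated minus vehicle was -0.01 ± 0.10 and 0.02 ± 0.09. Microglial markers moved with this difference. After scaling, 6 of 10 microglia markers and 7 of 10 markers of plaque-associated microglia were called higher in AppNLGF vehicle than in wild type. The summed level of the first list was 194 to 206 TPM in wild type and 271 to 361 TPM in vehicle libraries, that of the second 148 to 155 and 258 to 333, and no marker of either list was at 0 in all libraries. Other lists moved too. The astrocyte markers summed to 1136 to 1163 TPM in wild type and 1254 to 1499 in AppNLGF vehicle, with 1 of 10 called higher, and the endothelial ones to 52.7 to 55.2 and 61.2 to 73.7, with 0 of 10 called. Red-cell markers summed to 79.7 to 246 in wild type and 17.9 to 118 in vehicle, with a median difference of -1.42 over the 4 tested and none called. Over the 28 libraries Hmox1 had r = 0.59 with the microglia, 0.65 with the plaque-associated and 0.62 with the astrocyte sum. In the same order r was 0.21, 0.12 and -0.07 within the 11 vehicle libraries and 0.12, 0.30 and 0.52 within the 13 treated ones. The part of these cell types in the Hmox1 difference was not tested.

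The APP/TAU cohort had another pattern for Hmox1. After scaling it was at 2.54, 2.90, 3.11, 2.22 and 2.37 TPM in wild type, 1.91, 2.25, 1.91, 1.70 and 2.06 in vehicle and 3.15, 3.40, 2.80, 2.46 and 3.41 in treated libraries. Vehicle libraries lay below every treated library, as in 0.841% of genes, and 4 of 5 below every wild type library. Treated minus vehicle was 0.44 ± 0.09 after scaling and 0.29 ± 0.11 as deposited, and vehicle minus wild type was -0.29 ± 0.09 and -0.14 ± 0.11 (SE, n = 5 and 5). As deposited the treated and vehicle groups overlapped through vehicle library 2 at 2.87 TPM. None of the 10 microglia markers and of the 6 plaque-associated markers tested there was called in either of these comparisons, in which 0.0114% and 0.0284% of all genes were called after scaling. The other 4 plaque-associated markers, Cst7, Itgax, Clec7a and Ccl6, were below the filter on low values. Over the 15 APP/TAU libraries Hmox1 had r = 0.56 with the microglia, 0.28 with the plaque-associated and 0.36 with the astrocyte sum. The scaled microglia sum was lowest on average with vehicle (181 ± 21.5 TPM). It was 189 ± 8.77 for wild type and 196 ± 16.9 with treatment (SD, n = 5 each). Its group ranges overlapped, and the plaque-associated sum was highest for wild type (213 ± 20.8). The part of microglia in these Hmox1 differences was not tested.

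Hmox2, the constitutive haem oxygenase (ENSMUSG00000004070, chromosome 16, 4726361 to 4766742), was far more abundant per length than Hmox1, at 30.3 ± 1.56 TPM in vehicle and 30.2 ± 2.10 in treated AppNLGF libraries after scaling (SD, n = 11 and 13). Its difference of -0.00 ± 0.04 had an adjusted p of 0.975 (limma). Hmox2 in the APP/TAU cohort was at 35.4 ± 2.95 with vehicle, 34.9 ± 4.10 with treatment and 40.1 ± 2.98 in wild type, and neither vehicle minus wild type (-0.17 ± 0.08, adjusted p = 0.350) nor treated minus vehicle (-0.03 ± 0.08, adjusted p = 0.956) passed. Blvra (ENSMUSG00000001999, chromosome 2, 127070665 to 127097084), the main adult biliverdin reductase, was at 8.97 ± 0.876 and 8.83 ± 0.864 TPM in vehicle and treated AppNLGF libraries (-0.02 ± 0.05, adjusted p = 0.916). In the APP/TAU cohort scaled Blvra was at 10.1 ± 0.708 with vehicle, 11.1 ± 0.545 with treatment and 11.3 ± 1.04 in wild type, and as deposited its differences turned sign (vehicle minus wild type -0.14 ± 0.06 scaled and 0.05 ± 0.12 deposited).

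Blvrb (ENSMUSG00000040466, chromosome 7, 27447978 to 27466144), the second biliverdin reductase, which also reduces flavins, was at 4.10 ± 0.458 TPM in wild type, 5.00 ± 0.821 in AppNLGF vehicle and 6.14 ± 1.53 in treated AppNLGF libraries after scaling (SD, n = 4, 11 and 13). Treated libraries spread from 3.57 to 8.98 and covered the vehicle range of 3.99 to 6.60. The step from vehicle to treated was 0.23 ± 0.10 (adjusted p = 0.354, limma) and that from wild type to treated 0.46 ± 0.15 (adjusted p = 0.178). Blvrb in the APP/TAU cohort was at 5.39 ± 0.770, 5.00 ± 0.960 and 5.75 ± 1.19 in the same order (n = 5 each), with no difference past the test.

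**Figure D3:**
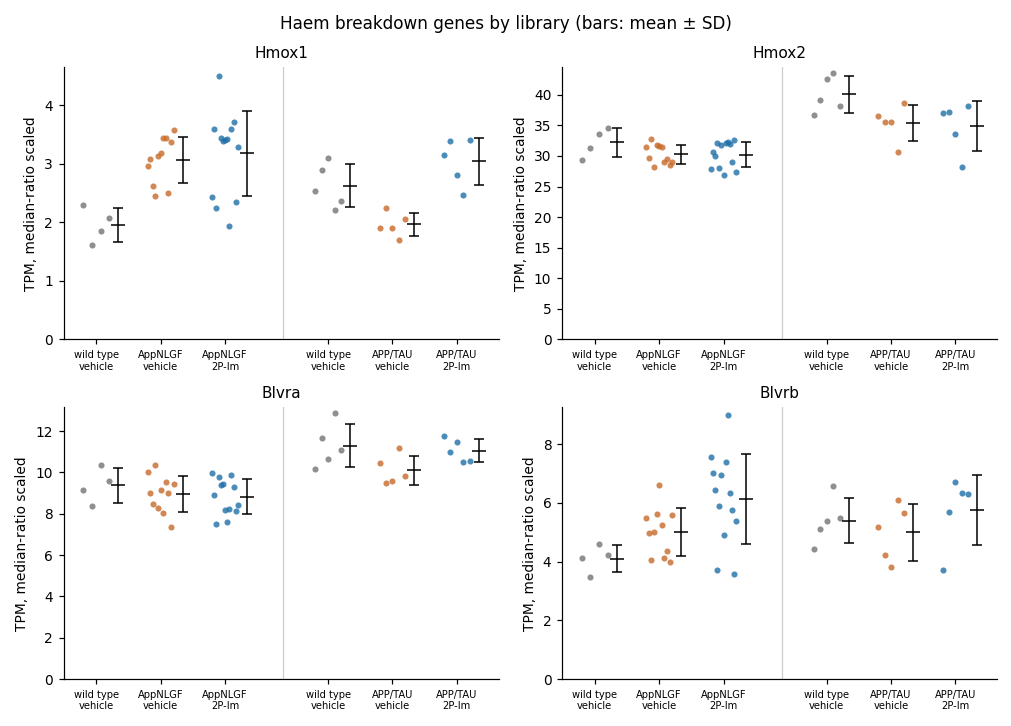
Haem breakdown genes by library. Vertical axes give median-ratio scaled TPM, the horizontal axis gives the group, points are libraries and bars are mean ± SD. Hmox1 is higher in all AppNLGF vehicle libraries and in 11 of 13 treated ones than in every wild type library of that cohort, and within the APP/TAU cohort its mean is lowest in vehicle libraries.

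Counts were taken over the other 8 members, because the differences of Ftl1 and Hmox1 carry no test. As deposited, 0 of the 8 passed in limma in any of the 6 comparisons. The share of all genes called as deposited was 0.28%, 0.0536% and 0.262% for AppNLGF vehicle against wild type, treated against vehicle and treated against wild type. For the APP/TAU cohort it was 0.0227%, 0 and 0.0227% in the same order. At an unadjusted p below 0.05, the AppNLGF counts as deposited were 0, 1 and 2 of 8, beside 4.16%, 6.18% and 7.73% of all genes. Those of the APP/TAU cohort were 0, 1 and 1 of 8, beside 23.8%, 26.8% and 2.16% of all genes. After median-ratio scaling 1 of the 8, Slc40a1, was called for AppNLGF treated against vehicle (0.286% of all genes called, 0.244% higher). It was also the 1 call against wild type (0.715% of all genes, 0.65% higher). In the other 4 comparisons 0 of the 8 were called after scaling in limma. The share of all genes called there was 0.691% for AppNLGF vehicle against wild type. It was 0.0284%, 0.0114% and 0.0284% for APP/TAU vehicle against wild type, treated against vehicle and treated against wild type. At an unadjusted p below 0.05, AppNLGF vehicle against wild type had 0 of 8 after scaling, beside 7.05% of all genes. The 3 APP/TAU comparisons had 2 of 8 each, in the same order beside 14.2%, 8.84% and 1378 of 17592 genes. The median difference of the 8 genes, treated minus vehicle, was 0.04 for AppNLGF and 0.12 for APP/TAU after scaling, beside -0.00 and 0.00 over all genes. As deposited it was -0.00 and -0.10, beside -0.04 and -0.19 over all genes, so its sign in the APP/TAU cohort turned with the scaling.

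**Figure D4:**
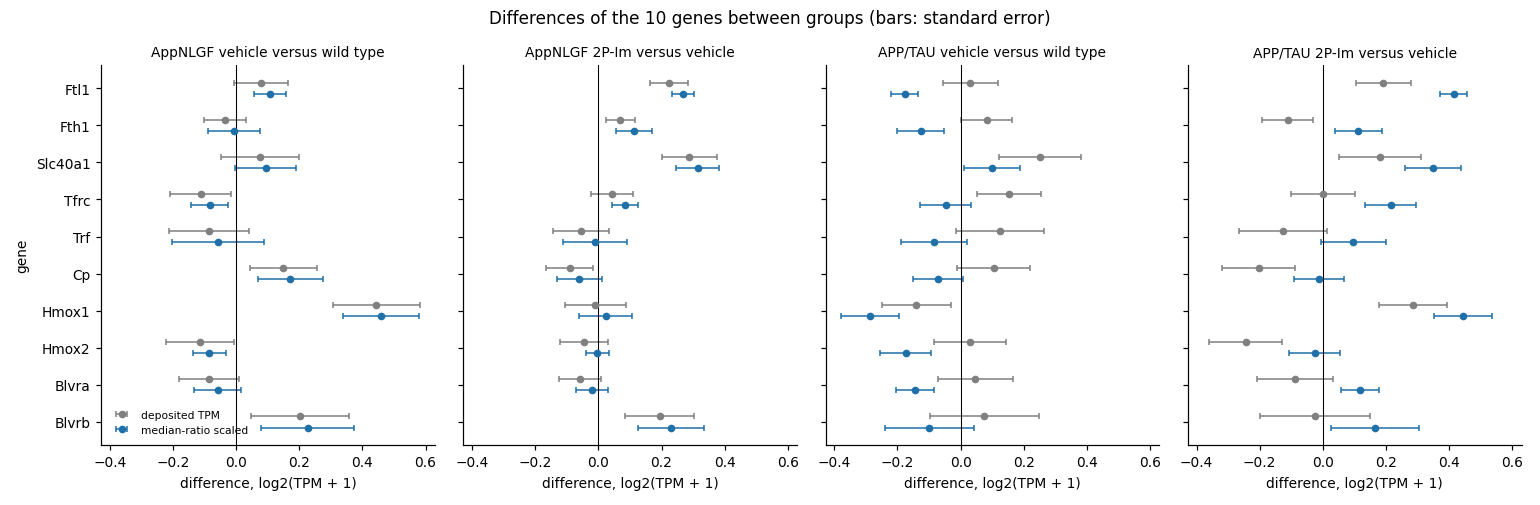
Differences of the 10 genes in 4 comparisons. The horizontal axis gives the difference on the log2(TPM + 1) scale, rows are genes, points are estimates and bars are SE, grey as deposited and blue after median-ratio scaling. Ftl1 and Slc40a1 lie to the right of 0 for CDDO-2P-Im against vehicle in both cohorts, and in the APP/TAU panels scaling moves all 10 genes to the left for vehicle against wild type and to the right for treated against vehicle.

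Effects were also set against each other across the cohorts in 1 fit over the 16418 genes tested in both tables. The CDDO-2P-Im effect (AppNLGF minus APP/TAU) was -0.15 ± 0.06 for Ftl1 and -0.42 ± 0.14 for Hmox1 after scaling, and 0.03 ± 0.11 and -0.30 ± 0.16 as deposited. None of the other 8 members was called in it by limma under either scaling (0.0731% of all genes after scaling, 0.134% as deposited). At an unadjusted p below 0.05 there were 0 of 8 after scaling and 1 of 8 as deposited, beside 1890 and 2666 of the 16418 genes. The genotype effect was 0.28 ± 0.07 for Ftl1 and 0.75 ± 0.16 for Hmox1 after scaling, and 0.05 ± 0.12 and 0.58 ± 0.18 as deposited. Of the other 8 members 0 were called in limma under either scaling (0.53% of all genes after scaling, 0.177% as deposited). An unadjusted p below 0.05 was found for 0 of 8, beside 1818 of the 16418 genes after scaling and 3246 as deposited.

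Other genes of iron and haem handling were taken from 4 lists with 56 members, of which 40 were tested in the AppNLGF and 44 in the APP/TAU table. In the comparisons of vehicle with wild type and of treated with vehicle, 0 of them passed in limma under either scaling in either cohort. At an unadjusted p below 0.05, AppNLGF treated against vehicle had 0 of 40 genes higher and 1 lower as deposited (6.18% of all genes in either direction) and 1 higher and 3 lower after scaling (12.5%). APP/TAU treated against vehicle had 0 of 44 higher and 4 lower as deposited (26.8% of all genes) and 5 higher and 1 lower after scaling (8.84%). For AppNLGF vehicle against wild type 1 gene was higher as deposited (4.16%) and 4 after scaling (7.05%), and none was lower. For APP/TAU vehicle against wild type 7 were higher and 0 lower as deposited (23.8%), but 1 higher and 4 lower after scaling (14.2%), so directions in that cohort turned with the scaling. Iron regulators such as Aco1, Ireb2 and Bach1 had a median difference of 0.01 after scaling for AppNLGF treated against vehicle (10 tested) and 0.04 in the APP/TAU cohort (10 tested). Genes of iron transport and redox, among them Slc11a2 and the Steap reductases, had medians of -0.03 (12 tested) and 0.01 (15 tested). Haem synthesis genes had medians of 0.02 and 0.11 (8 tested in each), and genes of haem transport and scavenging 0.03 (10 tested) and 0.08 (11 tested). Over all genes these medians were -0.00 and 0.00.

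Within these lists a few genes had the smallest p of a comparison. Nfe2l2, which encodes NRF2 itself, was at 6.63 TPM in vehicle and 6.26 in treated AppNLGF libraries after scaling (-0.08 ± 0.05, adjusted p = 0.560, limma) and at 8.73 and 8.87 in the APP/TAU cohort (0.02 ± 0.07, adjusted p = 0.959). Pcbp2, an iron chaperone and RNA-binding protein, was at 110 and 105 TPM in vehicle and treated AppNLGF libraries (-0.07 ± 0.04, adjusted p = 0.449). The endosomal ferrireductase Steap3 was at 1.67 and 1.44 TPM (-0.14 ± 0.08, adjusted p = 0.457).

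Other genes named by the same rule also had differences between genotypes or between scalings. Abcg2, a transporter of the blood-brain barrier that can carry porphyrins, was at 5.55 TPM in vehicle and 6.12 in treated AppNLGF libraries and at 4.21 in their wild type after scaling. It was called only for treated against wild type (0.45 ± 0.10, adjusted p = 0.0232, limma), and vehicle against wild type was 0.33 ± 0.10 (adjusted p = 0.244). Lrp1, the receptor that clears haem bound to haemopexin, was at 86.2, 100.3 and 91.1 TPM in wild type, vehicle and treated APP/TAU libraries. Its vehicle minus wild type difference was 0.42 ± 0.13 as deposited (adjusted p = 0.124) and 0.22 ± 0.06 after scaling (adjusted p = 0.192). The importer Slc11a2 and the lysosomal channel Mcoln1 had smaller differences after scaling in the same comparison (0.22 ± 0.08 deposited and 0.02 ± 0.05 scaled, 0.30 ± 0.12 and 0.10 ± 0.06), and neither passed.

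Cell type markers were summed per library to see what moves with the members. In the AppNLGF cohort the 10 endothelial markers summed to 52.7 to 55.2 TPM in wild type, 61.2 to 73.7 in vehicle and 67.0 to 83.8 in treated libraries after scaling, and none of the 10 was called for treated against vehicle or at 0 in all libraries. Against wild type, 2 of the 10 were called higher in treated libraries after scaling. Their part in the Ftl1 and Slc40a1 differences was not tested. Over the 28 libraries this sum had r = 0.70 with Ftl1 and 0.66 with Slc40a1. Within the 11 vehicle libraries r was 0.10 and 0.56, and within the 13 treated ones -0.19 and 0.21. The APP/TAU sums were 96.1 to 105 with vehicle, 94.1 to 104 with treatment and 87.0 to 108 in wild type. The correlation there was -0.07 for Ftl1 and 0.05 for Slc40a1 (n = 15). The part of these markers in the APP/TAU differences was not tested either.

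Oligodendrocyte markers accompanied Trf and Fth1. The summed level of 10 markers ran from 1479 to 2546 TPM in vehicle and from 1407 to 2513 TPM in treated AppNLGF libraries, and its correlation with Trf was 0.94 over the 28 AppNLGF and 0.78 over the 15 APP/TAU libraries. With Fth1 it was 0.81 and 0.46, whereas with Ftl1 it was 0.05 in the AppNLGF cohort. Within treated AppNLGF libraries alone it was 0.95 for Trf and 0.93 for Fth1 (n = 13). The astrocyte sum also had r = 0.66 with Fth1 over the 15 APP/TAU libraries, and 0.15 over the 28 AppNLGF libraries. Within vehicle and treated AppNLGF libraries that r was 0.62 and -0.12 (n = 11 and 13). Points share their library and its scaling, so these correlations are descriptions. The summed level of 6 red-cell markers varied from 5.64 to 246 TPM between AppNLGF libraries after scaling, and its correlation over the 28 libraries was -0.36 with Hmox1 and -0.11 with Blvrb.

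**Figure D5:**
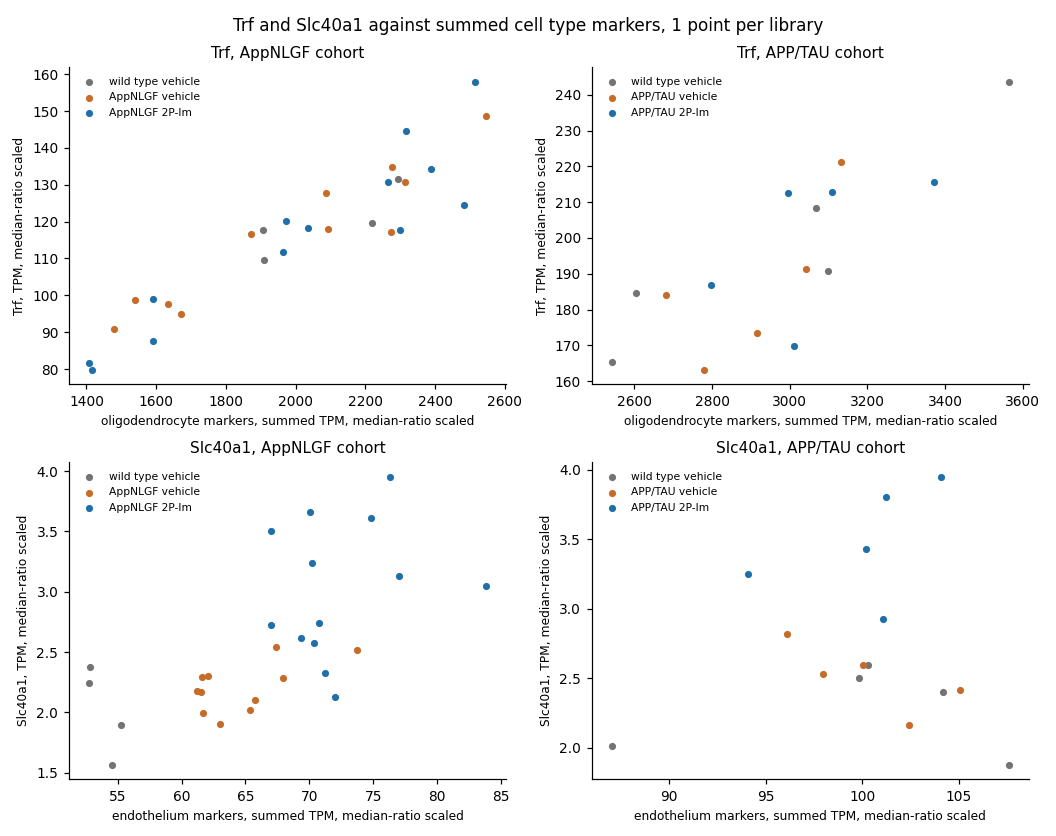
Trf and Slc40a1 against summed cell type markers. Each point is a library, coloured by group. The horizontal axes give summed, median-ratio scaled TPM of 10 oligodendrocyte or 10 endothelial markers, the vertical axes the scaled TPM of the gene, and the axes do not start at 0. Trf is higher where the oligodendrocyte sum is higher in each cohort, and the endothelial sums of the APP/TAU cohort groups overlap.

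Genes whose scaled level was most like that of a member were listed over the 28 AppNLGF libraries, with r over the 15 APP/TAU libraries beside it. For Ftl1 they were the aldehyde oxidase Aox1 (r = 0.89 and 0.69), the deaminase Rida (0.89 and 0.54) and the glutathione transferase Gstm1 (0.88 and 0.89). For Slc40a1 they were the tight junction gene Cldn5 (0.76 and 0.40), Rida (0.73 and 0.50) and Gstm1 (0.69 and 0.73). Trf went with the myelin gene Mag (0.93 and 0.76) and with Plekhb1 (0.93 and 0.81). Fth1 went with Sirt2 (0.86 and 0.33), Mbp (0.84 and 0.42) and Abca2 (0.83 and -0.31).

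All of these genes were picked on their r in the AppNLGF cohort, so a lower r in the APP/TAU cohort was likely beforehand, for every member. Hmox1 went with Serpina3n (0.71 and 0.01) and Aspg (0.71 and -0.01), and Blvrb like Vwf (0.71 and 0.04), Ftl1 (0.68 and 0.22) and Hadha (0.67 and -0.21). Tfrc was most like Gtf2e1, Dolpp1 and Tob1 (0.70 to 0.73 in the AppNLGF cohort), and Cp like Pdgfd, Pir and Slco3a1 (0.67 to 0.80). For Hmox2 the genes were Ppp1cc, Tsg101 and Zfp275 (0.67 to 0.69), and for Blvra Trim32, Prkar1b and Arl1 (0.68 to 0.71). Among the members themselves Ftl1 and Slc40a1 had r = 0.64 and 0.60 in the AppNLGF and APP/TAU cohorts, Fth1 and Trf 0.71 and 0.38, and Ftl1 and Hmox1 0.34 and 0.84. Group differences enter all of these values.

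Xist, an RNA of the inactive X chromosome and thus of female tissue, was above 10 TPM in 0 of 4 wild type, 5 of 11 vehicle and 7 of 13 treated AppNLGF libraries and in none of the 15 APP/TAU libraries. With Xist as a term in the fit, chosen after the data were seen, the scaled AppNLGF difference between treated and vehicle was 0.27 ± 0.04 for Ftl1 and 0.31 ± 0.07 for Slc40a1 (adjusted p = 0.0364, limma). Against wild type, where no library was above 10 TPM of Xist, the Slc40a1 difference with this term was 0.38 ± 0.10 and no longer passed (adjusted p = 0.104). That of Hmox1 was 0.48 ± 0.13. Promoter windows of 300 bases in RefSeq were at hand for 7 of the members, all but Hmox1, Slc40a1 and Trf. The antioxidant response element TGACNNNGC, on either strand, was found in 1 of their 13 windows, that of Blvra, and in 12.4% of all 32851 windows. The windows cover only 250 bases before and 50 after the start, so the search is silent on more distant elements.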

How the data were processed

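Brain RNA was extracted with Sepasol and made into directional MGI libraries, per the labels' protocols. Salmon estimated abundance on GRCm38 (mm10), per the submitters' processing notes, which give no version or annotation. The authors deposited TPM, with a separate file for each cohort. Depth cannot be read from TPM, so values carry no interval for counting error. Another 64708 rows of the AppNLGF file are single transcripts, used only in an alternative.

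Libraries were grouped by their titles. Genes with a mean of at least 1 TPM were tested on log2(TPM + 1) with limma 3.58.1 (trend; R 4.3.3), 1 mean per group, two-sided, adjusted by Benjamini-Hochberg over all genes tested. The scripts were tested on simulated data. Figures and summaries used Python 3.11.15, pandas 2.3.3, numpy 2.4.6 and matplotlib 3.10.9. The members and lists were chosen with earlier results of these data known. Named genes were all members, pathway genes called in, or with the 3 smallest p of, vehicle against wild type or treated against vehicle, and the 3 genes most correlated with each member. Some genes this rule names are not reported here. Deviations of same-numbered libraries correlated weakly (r from -0.08 to 0.12), and the labels do not link numbers between groups. Numbers were therefore not treated as pairs in the main fit. After scaling, the own number was the best match in 3 of 4 AppNLGF and 3 of 5 APP/TAU pairs of treated with wild type libraries. For treated with vehicle it was so in 2 of 11 and 1 of 5 pairs, and for vehicle with wild type in 0 of 4 and 1 of 5. A block on the number is given as an alternative. Alternatives were median-ratio scaling, a pseudocount of 0.1, rescaling without mitochondrial genes and the top 20, a mean TPM of 5 or no filter, robust moderation, the compared groups only, a block, and leaving out each library.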

Additional observations from a re-analysis of the deposited data

Results flagged for a closer look

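The 10 members and the ratio of Ftl1 to Fth1 were checked in each group of 4 or 5 libraries, as 44 sets of values that share libraries. Of these sets 2 held a deposited value far from the rest of its group, where chance gives about 1 in 20. The AppNLGF vehicle and treated groups, with 11 and 13 libraries, were not checked. Blvra was at 14.9 TPM in wild type library 4 of the APP/TAU cohort, and the nearest other library of that group was at 10.6 TPM. Blvrb was at 3.48 TPM in treated APP/TAU library 1, with the nearest other at 5.73 TPM. After median-ratio scaling the difference between vehicle and wild type was higher in the AppNLGF than in the APP/TAU cohort by 0.28 ± 0.07 for Ftl1 and by 0.75 ± 0.16 for Hmox1 (SE, log2 scale). As deposited both values were smaller, and that of Ftl1 was below its SE. Both genes' differences are descriptions. Cohort, age, dosing time and brain region cannot be told apart in these 2 values.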

How the results depend on the processing

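Counts here are over all 10 members and include Ftl1 and Hmox1, whose differences are descriptions. Over the other 8 members with median-ratio scaling, Slc40a1 was the 1 call for AppNLGF treated against vehicle and against wild type. The share of all genes called there was 0.286% and 0.715%. For APP/TAU treated against vehicle and for the genotype effect 0 of these 8 were called, beside 0.0114% and 0.53% of all genes. With deposited TPM no member was called in any comparison, and this count was 0 under a pseudocount of 0.1, both other filters, robust moderation, only the 2 groups compared, the replicate block, and when any single library was left out (lowest 0, highest 0). Scaling changed it. For AppNLGF treated against vehicle the count was 2 with median-ratio scaling, 2 without mitochondrial and top 20 genes, and 2 with median-ratio scaling and an Xist term. It was 1 with median-ratio scaling plus the replicate block, 1 with transcript rows added, and 1 to 2 when each library was left out under median-ratio scaling. For AppNLGF treated against wild type it was 3, 3 and 1 under the first 3 of these settings, then 1 with the block, 2 with transcript rows and 1 to 3 with each library left out. For APP/TAU treated against vehicle it was 1 with median-ratio scaling, 1 without mitochondrial and top 20 genes, 1 with the replicate block added to median-ratio scaling and 1 with each library left out. For APP/TAU treated against wild type it was 1 without mitochondrial and top 20 genes. For the genotype effect it was 2 with median-ratio scaling and 0 to 2 with each library left out. With median-ratio scaling the call for APP/TAU treated against vehicle was Ftl1, and those for the genotype effect were Ftl1 and Hmox1, which carry no test. Counts under the other settings are given without the share of all genes called there, so they describe the settings and not the members. The Xist term, the transcript rows and leaving out libraries of the cohort differences under median-ratio scaling were chosen after seeing the data. With the block and median-ratio scaling, Slc40a1 differed by 0.33 ± 0.08 between treated and vehicle AppNLGF libraries (adjusted p = 0.126, limma), against 0.0322 without the block. The log2 ratio of Ftl1 to Fth1, treated minus vehicle, ran from 0.122 to 0.175 (AppNLGF) and from 0.286 to 0.325 (APP/TAU) with each library left out, and vehicle minus wild type from 0.0970 to 0.145 and from -0.128 to -0.00763. Depth is unknown for TPM, so what it limits could not be measured.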
